A study of Mus musculus with 9 samples.

Results

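The genes described here are the cytoplasmic translation initiation factors (symbols starting Eif and a digit), the elongation factors (Eef and a digit) and the kinases, binding proteins and methyltransferases that carry the same names. Of 40213 gene symbols in the count files, 81 matched this pattern after 1 pseudogene symbol was left out, and the 65 with a mean of at least 1 CPM (counts scaled to the library total) over the 9 libraries were taken as members. Another 16 symbols lay under that line, and 10 of them had 0 counts in all libraries, which allows up to 3 counts per library. No member was near the line: the lowest members were Eif4ebp1 at 1.81 CPM, Eif3j2 at 1.81 CPM and Eif4ebp3 at 2.28 CPM, and the nearest symbol outside was Eef1akmt4 at 0.319 CPM. All 65 members passed the filter on low counts.

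The libraries were total RNA from the ventral hippocampus of 9 male wild-type C57BL/6J mice, 8 weeks old at the start of housing, in 3 groups of 3 mice. SUS_LE mice were restrained for 2 hours a day on 14 days, are labelled stress-susceptible and then ran on a treadmill at low intensity for 2 weeks. SUS mice had the same restraint and label, with no exercise, and SED mice are labelled untreated and sedentary. The labels do not give how susceptibility was scored, so a mouse's standing in SUS or SUS_LE rests on a selection that is not described. Markers of neurons and of hippocampal subfields were present in every library, with 5 neuron markers summing to 5396 to 5824 CPM in SUS_LE, 5408 to 5882 CPM in SUS and 5313 to 5414 CPM in SED.

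Markers of subfields and cell types moved with the groups. Prox1, a marker of the dentate gyrus, had 106.8, 98.7 and 90.9 CPM in SUS_LE, 88.2, 75.3 and 75.8 CPM in SUS, and 109, 89.0 and 118.4 CPM in SED, with each SUS library below all 6 others. Wfs1, a marker of CA1, had 84.6, 74.1 and 119.6 CPM in SUS_LE, 139.3, 146.6 and 111.5 CPM in SUS, and 83.2, 103.4 and 71.4 CPM in SED, with each SUS library above each SED library. Grik4, the third subfield marker, overlapped between SUS and SED. All 5 neuron markers had higher means in SUS than in SED, and Rbfox3, Slc17a7 and Gad1 did not overlap. The oligodendrocyte markers Mbp and Mog had lower means in SUS than in SED, and Mbp did not overlap. The astrocyte transporter Slc1a2 had 3991, 3850 and 3977 CPM in SUS_LE, 3582, 3688 and 3588 CPM in SUS, and 3901, 4023 and 4113 CPM in SED, with each SUS library below all 6 others, while 2 of 4 astrocyte markers had lower means in SUS than in SED. The part of these markers' tissue mix in the values of the factors was not tested.

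Library totals lay between 14172344 and 15582304 counts. Markers of the choroid plexus, the secretory epithelium that borders the hippocampus in the ventricle, differed strongly between libraries. The 15 markers summed to 226.6 to 2316 CPM in SUS_LE, 150.3 to 8999 CPM in SUS and 4547 to 6620 CPM in SED, with none of the 15 at 0. All 15 averaged lower in SUS than in SED and lower in SUS_LE than in SUS. Libraries SUS 1, SUS_LE 1 and SUS_LE 3 were the lowest, with 27.4, 82.7 and 58.3 CPM of Ttr, against 1491 to 6212 CPM in the other 6 libraries. In bulk tissue, fewer cells of a type and less RNA per cell cannot be told apart. Counts of factors are given with and without these 3 libraries, and a single fold change is given without them, or without 1 library, where that moves it by over 1.5 times or changes its sign. Leaving out these 3 libraries keeps SUS_LE 2 alone in SUS_LE, and SUS 2 and SUS 3 in SUS. Every value of SUS_LE without them therefore rests on 1 library and holds no spread between its mice. The part of choroid plexus content was not tested beyond leaving out libraries and a fit with a marker score as a term.

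Protein synthesis starts when the eIF2 complex, loaded with GTP and the initiator tRNA, joins the small ribosomal subunit with eIF1, eIF1A, eIF3 and eIF5, and this assembly is brought to the capped end of an mRNA by the cap-binding protein eIF4E, the scaffold eIF4G and the helicase eIF4A. In elongation, eEF1A delivers each aminoacyl-tRNA and eEF2 moves the ribosome along by a codon. Control is exerted at a few steps: kinases of eIF2 lower the supply of initiator complexes by blocking its exchange factor eIF2B, 4E-binding proteins hold eIF4E away from eIF4G until the kinase mTORC1 phosphorylates them, and eEF2 kinase slows elongation. In hippocampal neurons these steps are known for their roles in synaptic plasticity and memory, and most of this control acts on the proteins, which mRNA counts do not show.

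Several members exist as closely related gene copies, and the sequences decide how well counts can be assigned to each. Below are 60-base coding stretches with few differences between the copies of the pairs used in the results, from GENCODE M21 transcripts (GRCm38), with the bases that differ in capitals. They had the fewest differences among stretches without gaps, compared at steps of a codon along the alignment.
Eef1a1, coding bases 73 to 132: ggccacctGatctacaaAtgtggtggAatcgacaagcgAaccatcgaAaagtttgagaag
Eef1a2, coding bases 73 to 132: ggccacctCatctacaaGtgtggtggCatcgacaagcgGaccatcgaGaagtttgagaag
Eif4a1, coding bases 532 to 591: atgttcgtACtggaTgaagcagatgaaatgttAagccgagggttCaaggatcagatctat
Eif4a2, coding bases 538 to 597: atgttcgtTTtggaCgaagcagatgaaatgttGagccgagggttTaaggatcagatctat
Eif2s3x, coding bases 784 to 843: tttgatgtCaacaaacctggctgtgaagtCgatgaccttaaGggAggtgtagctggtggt
Eif2s3y, coding bases 784 to 843: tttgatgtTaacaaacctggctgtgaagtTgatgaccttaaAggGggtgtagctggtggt
Even in these stretches the copies differed at 5, 5 and 4 positions. Over the whole coding sequence Eef1a1 (chromosome 9) and Eef1a2 (chromosome 2) were 80.09% identical, with a longest shared run of 23 bases. Eif4a1 (chromosome 11) and Eif4a2 (chromosome 16) were 78.16% identical, with a longest run of 20 bases. The X-linked Eif2s3x and the Y-linked Eif2s3y were 86.3% identical, with a longest run of 34 bases. Eif3j1 and Eif3j2 were 100% identical over the 783 aligned bases, with a shared run of 781 bases, so the split of counts between them is uncertain. Eif3j2 was given 2.9 to 6.35% of the summed CPM of that pair in SUS_LE, 3.47 to 6.59% in SUS and 3.15 to 4.34% in SED.

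mRNAs of many elongation factors and ribosomal proteins carry a terminal oligopyrimidine tract, a C followed by pyrimidines at the first base of the mRNA, through which mTORC1 and Larp1 control their translation. The windows below show 15 bases before and 15 from the annotated start onward, from RefSeq on GRCm38.p6, with the tract in capitals where a C at most 5 bases from the start was followed by at least 4 pyrimidines on the gene's own strand.
Eef1a1, chr9:78481710-78481739, minus strand: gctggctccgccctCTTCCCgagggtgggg
Eif3f, chr7:108934400-108934429, plus strand: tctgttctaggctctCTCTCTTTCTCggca
Eif2s3x, chrX:94212637-94212666, minus strand: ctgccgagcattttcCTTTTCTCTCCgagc
Eif2b5, chr16:20498802-20498831, plus strand: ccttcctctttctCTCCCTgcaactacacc
Eef1a2, chr2:181157001-181157030, minus strand: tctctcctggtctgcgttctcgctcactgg
A window was on hand for 51 of the 65 members, and 14 of the 51 (27.45%) had such a tract, against 5715 of 27018 RefSeq genes (21.15%). The match is one of letters at an annotated start and says nothing of whether the mRNA is controlled in this way. A gene without a match, such as Eef2 or Eef1b2, may still carry a tract at the start it uses. In SUS_LE against SUS, 8 of the 14 with a tract and 17 of the 37 without had a positive fold change, with medians of 0.033 and -0.0026 on the log2 scale. These counts were 8 of 14 and 23 of 37 in SUS_LE against SED, with medians of 0.029 and 0.020, and 8 of 14 and 23 of 37 in SUS against SED, with medians of 0.0070 and 0.0195.

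Levels spanned about 3 orders of magnitude when expressed per kilobase of transcript. On this scale genes can be compared as far as the longest annotated coding transcript, whose length was used, is the form expressed. Eef1a1, the general form of the tRNA-delivering factor, was the most abundant at 773 CPM per kilobase, with between-mouse SDs of 5.39 in SUS_LE, 4.95 in SUS and 21.5 in SED. Eef1a2, the form of neurons and muscle, followed at 356 CPM per kilobase, then the translocase Eef2 at 221, the helicase Eif4a2 at 184 and Eif1, which keeps scanning ribosomes from stopping at wrong codons, at 161. These 5 differed from each other by more than their between-mouse SDs. Within eIF3, the large complex that holds the small subunit ready for the mRNA, Eif3h, Eif3k, Eif3c, Eif3e and the scaffold subunit Eif3a had 84.7, 69.7, 60, 57.8 and 47.4 CPM per kilobase, and Eif3c and Eif3e lay within their SDs of each other. Among the eIF2 kinases Eif2ak1, the heme-regulated kinase HRI, stood at 17.3, Eif2ak4 (GCN2, activated by amino acid shortage) at 5.71, Eif2ak3 (PERK, of the endoplasmic reticulum) at 5.40 and Eif2ak2 (PKR, activated by double-stranded RNA) at 2.41 CPM per kilobase. GCN2 and PERK did not differ beyond their SDs. The 4E-binding proteins were low, with Eif4ebp3 at 3.07, Eif4ebp2 at 2.77 and Eif4ebp1 at 0.907 CPM per kilobase, the first and second within their SDs of each other, against 24.1 for their partner Eif4e.

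**Figure D1:**
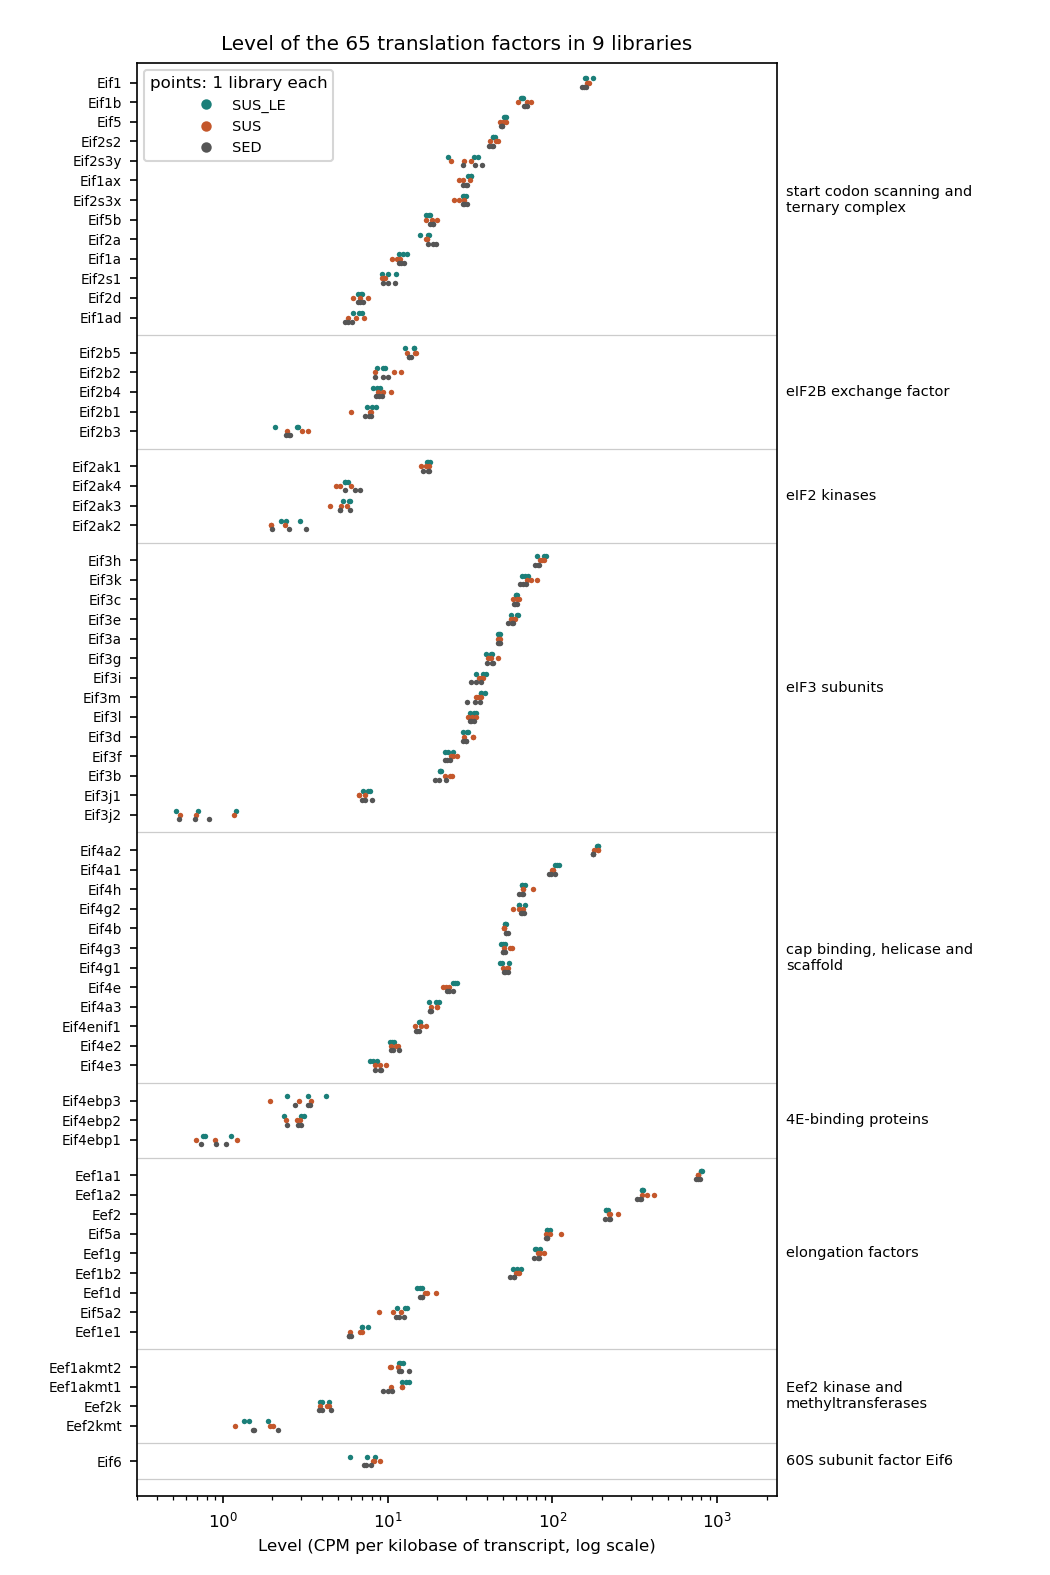
Level of each of the 65 factors in CPM per kilobase of transcript (horizontal log axis), with 1 point per library in SUS_LE, SUS and SED and the factors grouped by role. Points of the 3 groups lie on top of each other for nearly all factors, from Eef1a1 at 773 to Eif3j2 at 0.765 CPM per kilobase.

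The factors were among the steadier mRNAs of the tissue. The coefficient of variation over all 9 libraries had a median of 6.21% in the 65 members and 9.94% in the 16106 tested genes, and it was under 10% in 52 members (80%), against 50.3% of all tested genes. Members were also more abundant, at a median of 57.6 CPM against 16.2 CPM, which lowers counting error. Eif3a had 241.9, 246.2 and 241.0 CPM in SUS_LE, 242.8, 244.6 and 238.6 CPM in SUS, and 239.6, 243.5 and 247.8 CPM in SED. Its coefficient of variation of 1.23% ranked 1 of all 16106 tested genes and lay below the 1.68% that counting error alone would give for a gene of its depth. Eif4b, the cofactor of the eIF4A helicase, ranked 40, with 2.15%. The most variable members were Eif3j2 (33.7%), Eif4ebp3 (21.6%), Eif4ebp1 (20.7%) and the eEF2 methyltransferase Eef2kmt (20.2%), each with a mean under 4 CPM. Members with more counts also varied beyond counting error, such as Eef1a2 with 7.15% against 0.96% and Eif2s3y with 15.6% against 3.48%. Eif2s3y had 42.6, 61.1 and 64.7 CPM in SUS_LE, 44.8, 53.7 and 58.7 CPM in SUS, and 68.5, 52.4 and 62.1 CPM in SED. Its X-linked copy Eif2s3x, which encodes the same GTP-binding subunit of eIF2, varied by 5.42%.

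Together the members took 0.853, 0.852 and 0.838% of all counts in the SUS_LE libraries, 0.881, 0.865 and 0.859% in the SUS libraries, and 0.844, 0.839 and 0.844% in the SED libraries. Each SUS library was above every SUS_LE and SED library on this measure. After scaling by TMM factors, the summed members had 8574.9, 8627.4 and 8567.5 CPM in SUS_LE, 8785.9, 8673.1 and 8419 CPM in SUS, and 8394.5, 8380.2 and 8433.1 CPM in SED, and the SUS libraries overlapped both other groups. SUS 3 lay above every SED library by share of counts and below SED 3 after scaling.

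No member passed an adjusted p of 0.05 in any comparison by edgeR's quasi-likelihood test, and neither did any of the 16106 tested genes (0% in each comparison, Benjamini-Hochberg over all tested genes). The smallest adjusted p among members was 0.171 for Eif4e in SUS_LE against SUS, 0.238 for Eef1a2 in SUS against SED and 0.57 in SUS_LE against SED. DESeq2 and limma voom also called 0 members in each comparison. DESeq2 called 180 genes in SUS_LE against SUS (3.28% of those it gave an adjusted p), 16 in SUS_LE against SED (0.0994%) and 163 in SUS against SED (3.35%), and it gave an adjusted p to 44, 65 and 40 of the members.

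At an unadjusted p of 0.05 by edgeR, 6 members (9.23%) differed in SUS_LE against SUS, where 13.7% of all tested genes did, 3 with higher values in SUS_LE (7.2% of all tested genes) and 3 with lower values (6.49%). In SUS_LE against SED 4 members (6.15%) differed, where 6.64% of all tested genes did, and all 4 had higher values in SUS_LE (2.79% of all tested genes were higher and 3.86% lower). The comparison of SUS with SED gave 5 members (7.69%), where 13.1% of all tested genes differed, 4 with higher values in SUS (6.83%) and 1 with lower values (6.26%). The shares of members and of all tested genes were nearly the same in SUS_LE against SED, and that of members was the lower in the other comparisons. Tested over all 3 groups at once, 7 members differed (10.8%) against 13.5% of all tested genes: Eif4e, Eif3b, Eef1e1, Eef1akmt1, Eef1d, Eef1a2 and Eif3k. 

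Settings that bear on the choroid plexus moved these counts. Leaving out the 3 libraries low in choroid plexus keeps 1 SUS_LE library, so the counts of SUS_LE there are not a check on the group. Without SUS 1, SUS_LE 1 and SUS_LE 3, members with an unadjusted p under 0.05 by edgeR numbered 3 in SUS_LE against SUS (4.62%, against 9.16% of all tested genes), 3 in SUS_LE against SED (4.62%, against 6.15%) and 1 in SUS against SED (1.54%, against 9.42%). The choroid plexus score was -2.56 to 0.191 in SUS_LE, -3.07 to 2.14 in SUS, with SUS 1 the lowest, and 1.28 to 1.82 in SED. Score and group can therefore not be fully told apart. With the score as a term the members numbered 15 (23.1%, against 17.5% of all tested genes), 5 (7.69%, against 6.66%) and 3 (4.62%, against 9.91%). The share of members was above that of all tested genes in SUS_LE against SUS and near it in SUS_LE against SED. An adjusted p under 0.05 was then reached by 1 member in SUS_LE against SUS (2.68% of all tested genes), 0 in SUS_LE against SED (0.0124%) and 0 in SUS against SED (0%).

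Fold changes were small. Their median was 0.0014 in SUS_LE against SUS (33 members higher in SUS_LE and 32 lower), 0.025 in SUS_LE against SED (40 and 25) and 0.029 in SUS against SED (42 higher in SUS and 23 lower) on the log2 scale. Over all tested genes the medians were 0.0011, 0.0085 and -0.00039. Higher values in the group named first were seen in 50.8, 61.5 and 64.6% of members, against 50.3, 52.9 and 49.9% of all tested genes. All 95% intervals of the 65 members lay within 1 log2 unit of 0 in each comparison, and 59, 59 and 58 lay within 0.5. They lay within 0.25 for 39, 43 and 34 members. The 6 members outside 0.5 in SUS_LE against SUS and the 7 in SUS against SED were led by those with few counts, such as Eif3j2, Eif4ebp1 and Eef2kmt, for which smaller differences were not detectable at this depth.

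**Figure D2:**
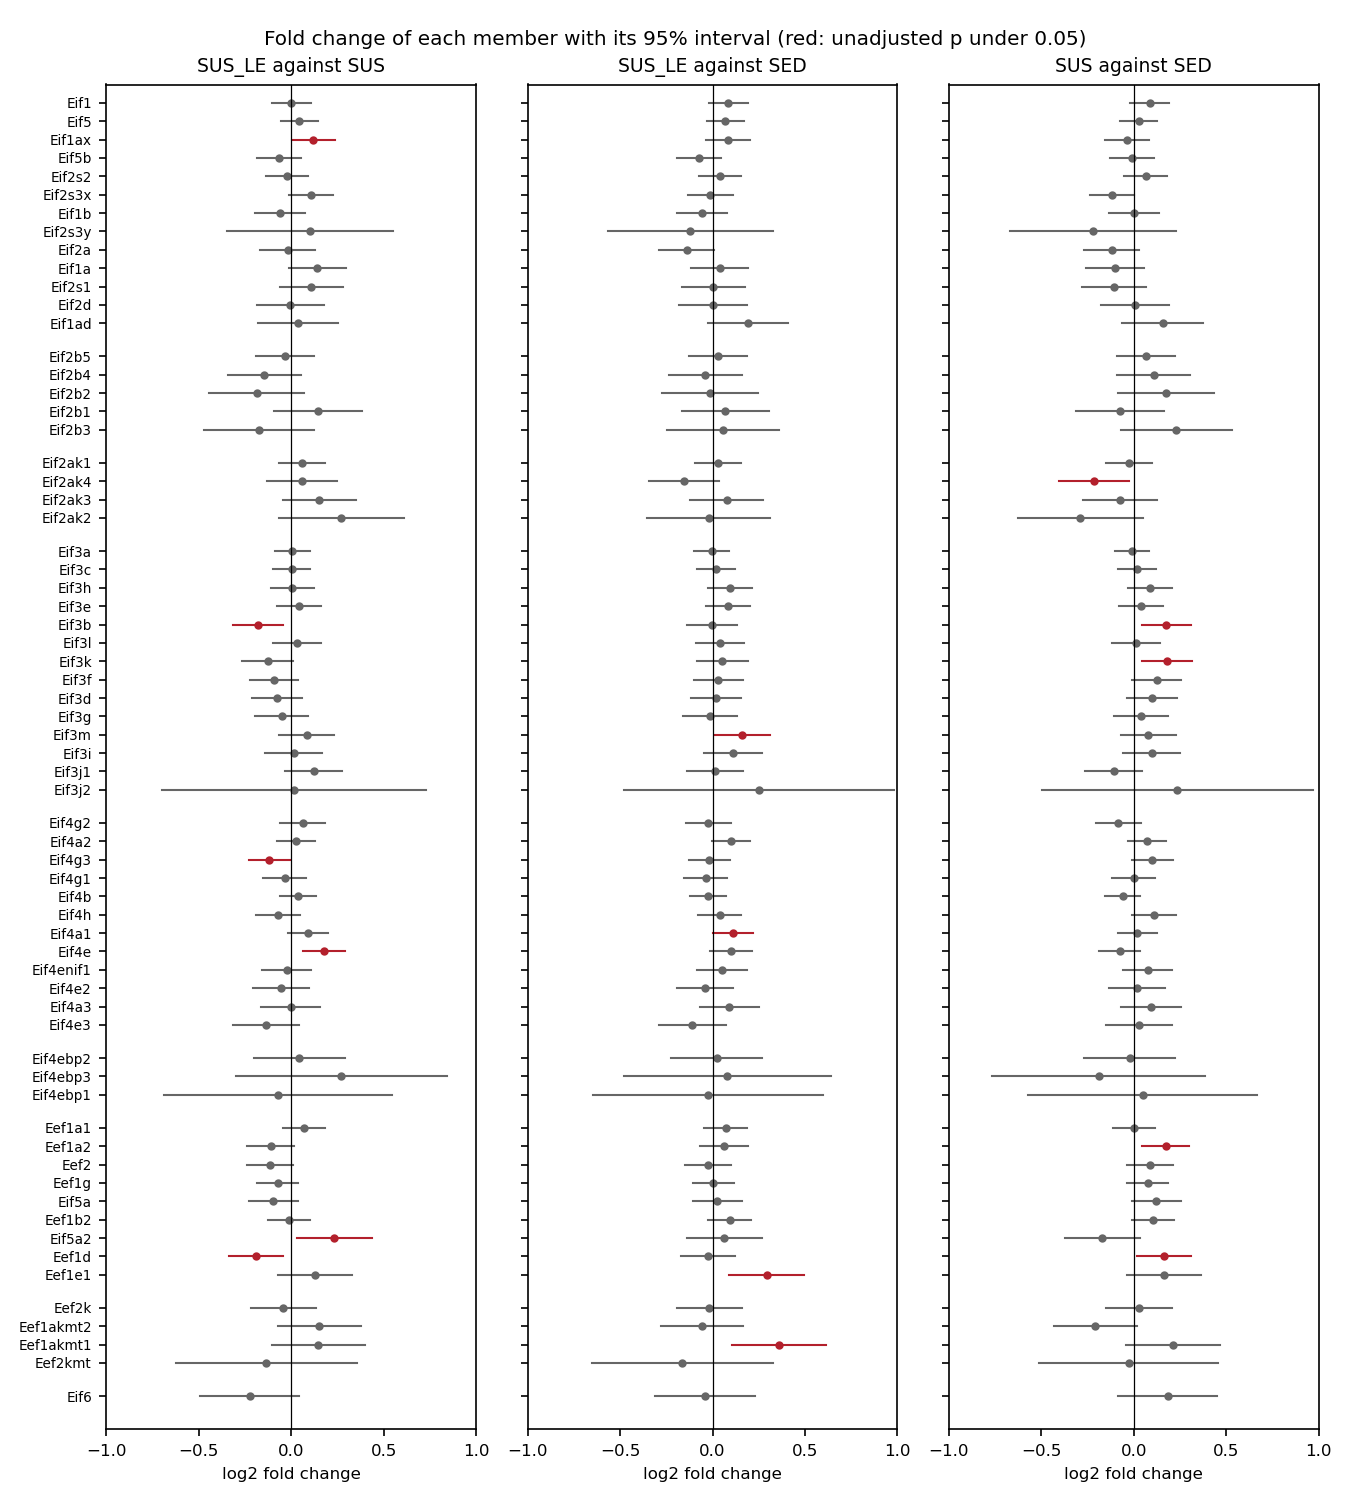
Log2 fold change of each of the 65 factors with its 95% interval from edgeR, in SUS_LE against SUS, SUS_LE against SED and SUS against SED, with the factors grouped by role. Red marks an unadjusted p under 0.05, which 6, 4 and 5 factors reached. No factor passed the adjusted threshold.

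Most elongation factors had higher means in SUS than in SED. Of 9 members, 8 had higher values in SUS (median 0.104), 6 of 9 had lower values in SUS_LE than in SUS (median -0.072), and 7 of 9 had higher values in SUS_LE than in SED (median 0.060). Without the 3 libraries low in choroid plexus the medians were 0.040, -0.025 and 0.071, with 8 higher, 5 lower and 6 higher, in the same order. Eef1a2 had 724, 741 and 732 CPM in SUS_LE, 862, 784 and 728 CPM in SUS, and 676.5, 719 and 712 CPM in SED. Every SUS library was above every SED library, the SUS_LE libraries overlapped SUS, and SUS 1 was the highest. The log2 fold change of Eef1a2 in SUS against SED was 0.17 ± 0.0613 (SE, edgeR adjusted p = 0.238). Without SUS 1 the fold change was 0.11, and without all 3 libraries low in choroid plexus 0.10. Eef1a1 had 1421, 1440 and 1435 CPM in SUS_LE, 1360, 1376 and 1362 CPM in SUS, and 1364, 1326 and 1403 CPM in SED. The SUS_LE libraries were above all 6 others, and SUS overlapped SED. By edgeR, Eef1a1 differed by 0.068 ± 0.0545 (SE) on the log2 scale in SUS_LE against SUS (adjusted p = 0.607).

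Because the pair Eef1a2 and Eef1a1 is measured in the same library, the ratio of their counts needs no scaling for depth. It is not corrected for trends of a library on GC content, which was 60.56% in the Eef1a2 transcript and 47.44% in that of Eef1a1. The ratio with such trends removed was not computed. It was 0.509, 0.515 and 0.51 in SUS_LE, 0.634, 0.57 and 0.535 in SUS, and 0.496, 0.542 and 0.508 in SED. The SUS_LE libraries lay below every SUS library, while SUS 3 lay below the highest SED library. The log2 ratio differed by -0.177 in SUS_LE against SUS (exact permutation test, two-sided, p = 0.1, the smallest that 3 against 3 allows; 0.4 after adjustment over 6 ratio tests), by -0.0098 in SUS_LE against SED (exact permutation p = 1) and by 0.167 in SUS against SED (exact permutation p = 0.2, adjusted 0.4). Without SUS 1 the difference was -0.11 in SUS_LE against SUS and 0.101 in SUS against SED. The helicase pair Eif4a2 and Eif4a1, where the first is the form enriched in brain, had ratios of 2.71 ± 0.109 in SUS_LE, 2.83 ± 0.101 in SUS and 2.73 ± 0.138 in SED (SD, n = 3 each; exact permutation p between 0.2 and 0.8 in the 3 comparisons).

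The subunits of the exchange factor that reloads eEF1A with GTP had higher means in SUS than in both other groups. Eef1d, its delta subunit, had 46.3, 44.9 and 42.8 CPM in SUS_LE, 55.9, 47.8 and 49.2 CPM in SUS, and 44.7, 45.9 and 45.9 CPM in SED. It was the single member whose 3 SUS libraries were above all 6 others (1 of 65, or 1.54%, against 3.97% of all tested genes). For SUS_LE against SUS, edgeR gave Eef1d a log2 fold change of -0.19 ± 0.0695 (SE) and an adjusted p of 0.235. Eef1d had a log2 fold change of 0.16 ± 0.0696 (SE) in SUS against SED, and its adjusted p by edgeR was 0.319. Without SUS 1 these fold changes were -0.12 and 0.092, and without all 3 libraries low in choroid plexus -0.11 and 0.089. Eef1b2, the alpha subunit, averaged 118.4 ± 6.67 CPM in SUS_LE, 119.4 ± 3.03 CPM in SUS and 111.1 ± 4.01 CPM in SED (SD, n = 3 each), and Eef1g, the gamma subunit, averaged 150.3 ± 6.19, 158.1 ± 6.72 and 149.9 ± 5.36 CPM. All 3 SUS libraries of Eef1b2 were above the SED libraries, and those of Eef1g overlapped them.

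Eef2, which moves the ribosome along the mRNA, had 674, 655 and 650.3 CPM in SUS_LE, 775, 679 and 688 CPM in SUS, and 647, 679 and 687 CPM in SED. All SUS_LE libraries were below the SUS libraries, of which SUS 1 stood far above the other two, and SUS overlapped SED. Its log2 fold change in SUS_LE against SUS was -0.11 ± 0.059 (SE), at an edgeR adjusted p of 0.41. Without SUS 1 the fold change was -0.050, and without all 3 libraries low in choroid plexus -0.057. Its kinase Eef2k averaged 26.9 ± 1.73 CPM in SUS_LE, 27.7 ± 1.87 CPM in SUS and 27.2 ± 2.35 CPM in SED. Eif5a, the hypusine-bearing factor that helps ribosomes through stalling sequences, averaged 134.9 ± 3.71, 144.3 ± 15.7 and 132.6 ± 1.33 CPM in the same order, and SUS 1 (161.9 CPM) set the spread in SUS. Its rarer copy Eif5a2 had 56.9, 66.1 and 64.1 CPM in SUS_LE, 44.8, 60.4 and 54.1 CPM in SUS, and 59.1, 63.6 and 56.5 CPM in SED. The values of SUS_LE and SUS overlapped, and SUS 1 was the lowest of the 9. The log2 fold change of Eif5a2 in SUS_LE against SUS was 0.23 ± 0.0948 (SE, edgeR adjusted p = 0.303). This was the one member called under any alternative setting: its adjusted p by edgeR was 0.0469 with no filter on low counts and 0.0265 with the choroid plexus score as a term. In these settings 430 of 26992 genes and 431 of 16106 genes were called in that comparison. Without SUS 1 its fold change was 0.13. Eef1e1, named as an elongation factor but known as a scaffold of the multi-tRNA-synthetase complex, had 17.8, 19.4 and 17.8 CPM in SUS_LE, 17.2, 15.2 and 17.9 CPM in SUS, and 14.8, 14.9 and 15.2 CPM in SED. Each SUS_LE library was above each SED library, and SUS lay between and overlapped both. By edgeR, Eef1e1 differed by 0.29 ± 0.0961 (SE) on the log2 scale in SUS_LE against SED (adjusted p = 0.57).

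**Figure D3:**
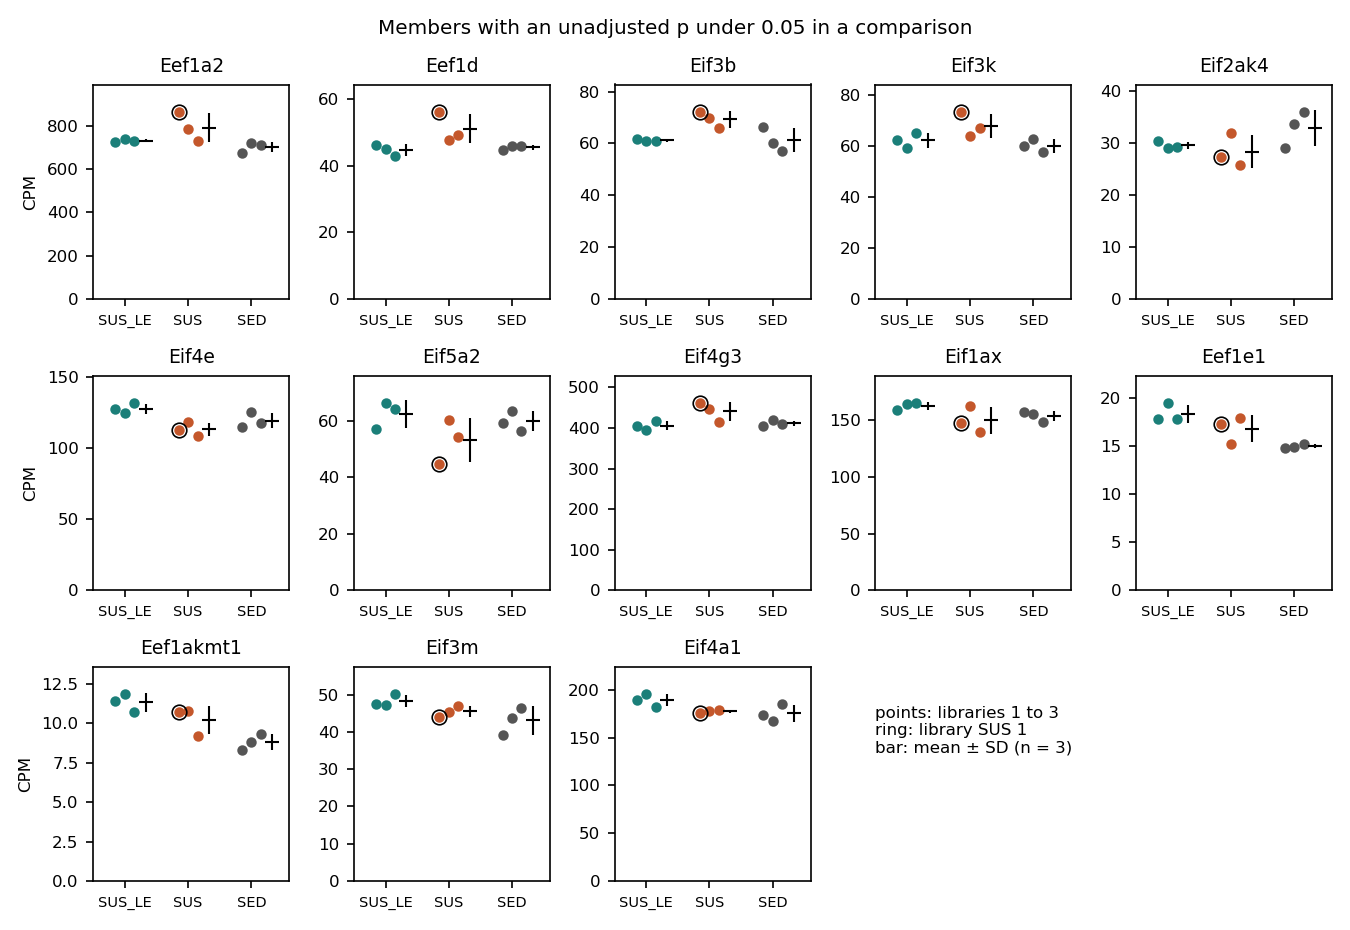
CPM of the 13 members with an unadjusted p under 0.05 in a comparison, with 1 point per library (SUS_LE, SUS, SED; libraries 1 to 3 from left to right), the mean ± SD (n = 3) beside the points and a ring around library SUS 1. SUS 1 is the highest of the 9 libraries for Eef1a2, Eef1d, Eif3b, Eif3k and Eif4g3 and the lowest for Eif5a2.

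The eIF2 kinases had the opposite order of means. All 4 had lower means in SUS than in SED (median log2 fold change -0.144) and all 4 had higher means in SUS_LE than in SUS (median 0.105), while SUS_LE against SED gave 2 in each direction (median 0.0042). Without the 3 libraries low in choroid plexus, 3 of 4 were lower in SUS than in SED (median -0.132) and 4 of 4 higher in SUS_LE than in SUS (median 0.079). Summed, the 4 kinases had 142.6, 142.8 and 141.8 CPM in SUS_LE, 133.3, 137.9 and 130.4 CPM in SUS, and 143.2, 141.2 and 144.7 CPM in SED. Each SUS library was below all 6 others, a pattern seen after the values of single kinases were known and given as a description. Eif2ak4 (GCN2) had 30.3, 29.04 and 29.3 CPM in SUS_LE, 27.4, 31.9 and 25.7 CPM in SUS, and 29.1, 33.6 and 35.9 CPM in SED, and the groups overlapped. For SUS against SED, edgeR gave Eif2ak4 a log2 fold change of -0.21 ± 0.0901 (SE) and an adjusted p of 0.311. Eif2ak2 (PKR) had 10.4, 9.74 and 12.7 CPM in SUS_LE, 8.52, 8.47 and 10.3 CPM in SUS, and 13.8, 8.62 and 10.9 CPM in SED, with SED 1 the highest. Eif2ak2 had a log2 fold change of -0.29 ± 0.161 (SE) in SUS against SED, and its adjusted p by edgeR was 0.458. It was -0.11 without SED 1 and -0.44 without SED 2. Eif2ak3 (PERK) had a log2 fold change of -0.074 ± 0.095 (SE) in SUS against SED, which was 0.014 without SUS 1, -0.0018 without SED 3, -0.16 without SUS 3 and -0.11 without SED 2. Eif2ak1 (HRI), the most abundant, averaged 76.2 ± 1.36 CPM in SUS_LE, 73.3 ± 4.31 CPM in SUS and 74.7 ± 3.14 CPM in SED.

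Their substrate Eif2s1, the eIF2 subunit that the kinases phosphorylate, had 31.6, 38.4 and 34.2 CPM in SUS_LE, 31.6, 32.6 and 32.5 CPM in SUS, and 32.1, 34.3 and 37.6 CPM in SED. Its mean was also lowest in SUS, with the groups overlapping. Its log2 fold change in SUS against SED was -0.11 ± 0.0823 (SE), at an edgeR adjusted p of 0.619. Without SED 3 it was -0.043, and without SED 1 -0.159. The other eIF2 subunits Eif2s2 and Eif2s3x averaged 111.6 ± 1.54 and 106.6 ± 1.75 CPM in SUS_LE, 113.3 ± 6.71 and 99.1 ± 7.35 CPM in SUS, and 108.4 ± 3.44 and 107.5 ± 2.73 CPM in SED. The exchange factor had the opposite order: of the 5 eIF2B subunits 4 had higher means in SUS than in SED (median 0.108) and 4 had lower means in SUS_LE than in SUS (median -0.146), with none under an unadjusted p of 0.05 by edgeR. Without the 3 libraries low in choroid plexus, 5 of 5 were higher in SUS than in SED (median 0.042). The 1 SUS_LE library then left did not keep the order, with 2 of 5 lower than in SUS (median 0.043). Eif2b5, the catalytic subunit, averaged 35.5 ± 2.47 CPM in SUS_LE, 36.4 ± 2.42 CPM in SUS and 34.8 ± 0.637 CPM in SED. Eif2b2, the beta subunit, had 13.8, 15.1 and 15.4 CPM in SUS_LE, 19.4, 13.5 and 17.5 CPM in SUS, and 13.5, 16.1 and 15.1 CPM in SED, and SUS 2 was among the lowest of the 9 libraries.

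Over all 13 start codon factors, values were close in the 3 groups, with 6 of 13 higher in SUS than in SED, 7 of 13 higher in SUS_LE than in SUS and 8 of 13 higher in SUS_LE than in SED. Without the 3 libraries low in choroid plexus these counts were 4, 11 and 9. Eif1, the most abundant of them, averaged 217.4 ± 12.7 CPM in SUS_LE, 217.4 ± 2.64 CPM in SUS and 204.9 ± 5.13 CPM in SED, and each SUS library was above each SED library. Eif1ax, the X-linked gene of eIF1A, had 159, 165 and 165 CPM in SUS_LE, 148, 162.5 and 139.7 CPM in SUS, and 158, 155 and 149 CPM in SED. Each SUS_LE library was above each SED library, and SUS overlapped both. The log2 fold change of Eif1ax in SUS_LE against SUS was 0.12 ± 0.0563 (SE, edgeR adjusted p = 0.357). Without SUS 3 that fold change was 0.067, and with GC and length trends removed 0.020.

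Of the 14 eIF3 genes, 12 had higher means in SUS than in SED (median 0.083), 9 had higher means in SUS_LE than in SUS (median 0.0062) and 11 had higher means in SUS_LE than in SED (median 0.036). Without the 3 libraries low in choroid plexus, which leaves 1 SUS_LE library, 12, 4 and 5 of the 14 were higher, with medians of 0.071, -0.059 and -0.0096. Eif3b, the subunit that binds the other scaffold subunits through its RNA-recognition motif, had 61.7, 60.9 and 61 CPM in SUS_LE, 71.96, 69.96 and 65.9 CPM in SUS, and 66.3, 60.3 and 57.2 CPM in SED. The SUS_LE libraries were within 1 CPM of each other and below every SUS library, and SUS overlapped SED through SED 1. By edgeR, Eif3b differed by -0.18 ± 0.0638 (SE) on the log2 scale in SUS_LE against SUS (adjusted p = 0.221). For SUS against SED, edgeR gave Eif3b a log2 fold change of 0.18 ± 0.0639 (SE) and an adjusted p of 0.246. Without SUS 1 these fold changes were -0.15 and 0.15, and without all 3 libraries low in choroid plexus -0.15 and 0.14. Eif3k, a small peripheral subunit, had 62.3, 59.2 and 65.01 CPM in SUS_LE, 73.1, 63.8 and 66.96 CPM in SUS, and 59.8, 62.7 and 57.5 CPM in SED, with each SUS library above each SED library and SUS_LE overlapping both. Eif3k had a log2 fold change of 0.18 ± 0.0655 (SE) in SUS against SED, and its adjusted p by edgeR was 0.249. Eif3m had 47.4, 47.2 and 50.04 CPM in SUS_LE, 44.1, 45.2 and 47.1 CPM in SUS, and 39.04, 43.7 and 46.5 CPM in SED, with each SUS_LE library above all 6 others. Its log2 fold change in SUS_LE against SED was 0.16 ± 0.0711 (SE), at an edgeR adjusted p of 0.716. Without SED 1, its lowest library, the fold change was 0.096.

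Among the cap-binding, helicase and scaffold factors, Eif4e had 128, 124 and 131 CPM in SUS_LE, 113, 118 and 109 CPM in SUS, and 115, 125 and 118 CPM in SED. Each SUS_LE library was above each SUS library, and SED overlapped both. The log2 fold change of Eif4e in SUS_LE against SUS was 0.18 ± 0.0537 (SE, edgeR adjusted p = 0.171). The fold change was 0.17 without SUS 1, 0.14 without the 3 libraries low in choroid plexus and 0.084 with GC and length trends removed. The 4E-binding proteins that hold this factor differed by less than their spread: Eif4ebp2 averaged 16.3 ± 2.26 CPM in SUS_LE, 15.8 ± 1.49 CPM in SUS and 16.0 ± 1.55 CPM in SED, and Eif4ebp1 averaged 1.77 ± 0.413, 1.86 ± 0.533 and 1.80 ± 0.315 CPM (SD, n = 3 each). At this depth the 95% interval of Eif4ebp1 reached beyond 0.5 log2 units from 0 in SUS against SED. Eif4g3, a scaffold, had 405, 396 and 417 CPM in SUS_LE, 460.5, 448 and 415 CPM in SUS, and 405, 419 and 410.2 CPM in SED, and SUS 3 lay among the other groups. By edgeR, Eif4g3 differed by -0.12 ± 0.0526 (SE) on the log2 scale in SUS_LE against SUS (adjusted p = 0.328). The other scaffolds, Eif4g1 and the cap-independent Eif4g2, averaged 286.2 ± 19.4 and 517.6 ± 23.7 CPM in SUS_LE, 293.2 ± 11.0 and 496.2 ± 35.7 CPM in SUS, and 293.5 ± 9.97 and 525.7 ± 10.9 CPM in SED.

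The eIF4A helicases had higher means in SUS_LE than in SED. Eif4a1 had 189.9, 195 and 183 CPM in SUS_LE, 176, 178 and 179 CPM in SUS, and 173, 168 and 185 CPM in SED, with each SUS_LE library above each SUS library and SED 3 above SUS_LE 3. For SUS_LE against SED, edgeR gave Eif4a1 a log2 fold change of 0.11 ± 0.0506 (SE) and an adjusted p of 0.742. Eif4a2 had 514, 508 and 515 CPM in SUS_LE, 509, 513 and 485.5 CPM in SUS, and 479, 479 and 477 CPM in SED, with all SUS_LE and SUS libraries above the SED libraries. Eif4a2 had a log2 fold change of 0.10 ± 0.0493 (SE) in SUS_LE against SED, and its adjusted p by edgeR was 0.765. Eif4b had 202, 199.9 and 199 CPM in SUS_LE, 195, 196 and 195 CPM in SUS, and 208.5, 203 and 200.1 CPM in SED, with each SUS library below all 6 others by a few CPM. Its log2 fold change in SUS against SED was -0.060 ± 0.0454 (SE), at an edgeR adjusted p of 0.605. Only Eif4b and the eEF1A methyltransferase Eef1akmt2 had all SUS libraries below all others (2 of 65, or 3.08%, against 3.73% of all tested genes).

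Of the enzymes that modify elongation factors, Eef1akmt1, which methylates a lysine of eEF1A, had 11.4, 11.8 and 10.7 CPM in SUS_LE, 10.7, 10.8 and 9.18 CPM in SUS, and 8.29, 8.83 and 9.33 CPM in SED. Each SUS_LE library was above each SED library, and SUS overlapped both. The log2 fold change of Eef1akmt1 in SUS_LE against SED was 0.36 ± 0.121 (SE, edgeR adjusted p = 0.603). The fold change was 0.42 without the 3 libraries low in choroid plexus and 0.35 with GC and length trends removed. Eif6, which keeps the large ribosomal subunit from joining too early, averaged 10.9 ± 1.91 CPM in SUS_LE, 12.8 ± 0.683 CPM in SUS and 11.2 ± 0.545 CPM in SED, with each SUS library above each SED library.

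Members whose libraries did not overlap were about as frequent as among all genes when both directions were counted together. In SUS_LE against SUS 9 of 65 did not overlap (13.8%, against 17% of all tested genes), 6 higher in SUS_LE (9.23%, against 8.61%) and 3 lower (4.62%, against 8.38%). Between SUS_LE and SED there were 12 (18.5%, against 16.2%), 10 higher in SUS_LE (15.4%, against 7.54%) and 2 lower (3.08%, against 8.64%). Between SUS and SED there were 13 (20%, against 18.3%), 10 higher in SUS (15.4%, against 9.72%) and 3 lower (4.62%, against 8.56%). By direction the shares of members and of all genes were further apart, and that difference was not tested. The same SUS libraries stand in 2 of these comparisons, on top in one and below in the other, so an unusual SUS library moves both fold changes of a gene in opposite directions.

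Library SUS 1 stood apart within its group. It was the highest of the 9 libraries for 20 members and the lowest for 10, against 1 to 11 and 3 to 12 in the other libraries, and its median absolute deviation from the mean of the 9 libraries was 0.101 on the log2 scale, against 0.0469 to 0.0599 in the others. Over all tested genes SUS 1 also had the largest such deviation, 0.139 against 0.082 to 0.1. It had the lowest choroid plexus score as well. Without it, 2 members had an unadjusted p under 0.05 by edgeR in SUS_LE against SUS (Eif4e and Eif3b; 12% of all tested genes), 5 in SUS_LE against SED (9.15%) and 3 in SUS against SED (Eef1akmt2, Eif3b and Eif4enif1; 9.1%). Its depth of 14507199 counts was the median of the 9 libraries.

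**Figure D4:**
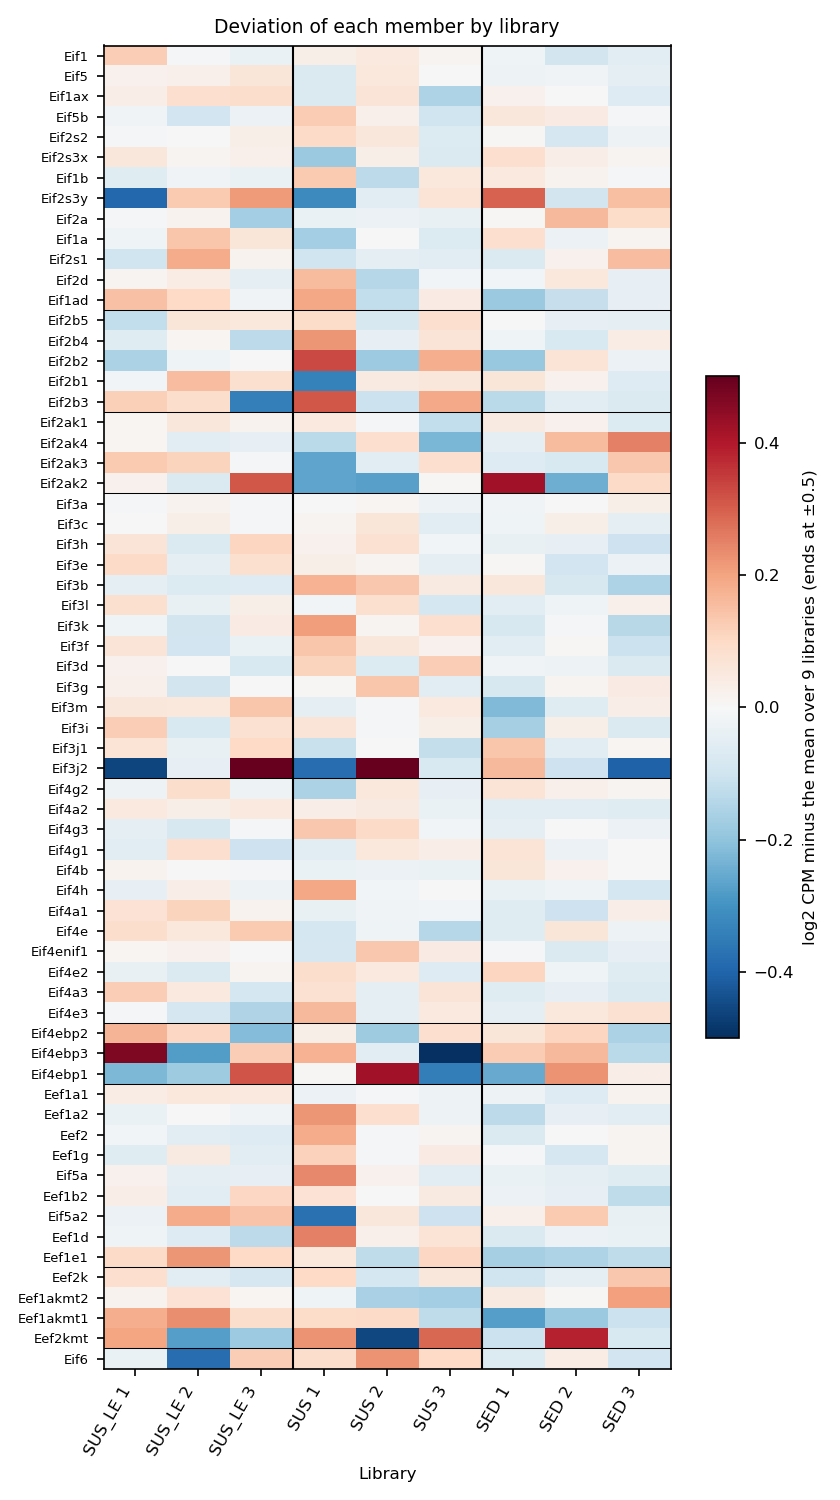
Log2 CPM of each of the 65 factors minus its mean over the 9 libraries (colour, ends at ±0.5), with libraries of SUS_LE, SUS and SED from left to right and factors grouped by role. The column of SUS 1 has the strongest colours among abundant factors, with a median absolute deviation of 0.101 against 0.0469 to 0.0599 in the other libraries.

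In both comparisons that include SUS, the fold changes of the members followed the GC content of their transcripts. Across the 65 genes, which share libraries and depth and are not independent replicates, the Spearman correlation of fold change with GC content was -0.625 in SUS_LE against SUS, -0.195 in SUS_LE against SED and 0.494 in SUS against SED, and over the 14741 tested genes with a GC value it was -0.395, -0.0328 and 0.369. In SUS_LE against SUS 10 of the 33 members with GC content of 49.9% or more had higher values in SUS_LE, against 23 of the 32 below. For SUS_LE against SED, 19 of the 33 and 21 of the 32 had higher values in SUS_LE. For SUS against SED, 26 of the 33 and 16 of the 32 had higher values in SUS. Eef1a2 has the most GC-rich transcript of all members (60.56%) and Eif5a2 the least (38.79%). With trends on GC content and length removed from each library, 0 members had an unadjusted p under 0.05 by edgeR in SUS_LE against SUS (8.48% of all tested genes), 2 in SUS_LE against SED, Eef1e1 and Eef1akmt1 (7.07%), and 6 in SUS against SED (8.54%), none of them among the 5 above. The fold change of Eef1a2 was then 0.00027 in SUS_LE against SUS and 0.084 in SUS against SED. In SUS_LE against SUS the fold changes were then -0.11 for Eef1d, -0.10 for Eif3b, 0.13 for Eif5a2, -0.026 for Eef2 and 0.044 for Eef1a1. In SUS against SED they were 0.10 for Eef1d, 0.10 for Eif3k, -0.015 for Eif2s1 and -0.038 for Eif4b.

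**Figure D5:**
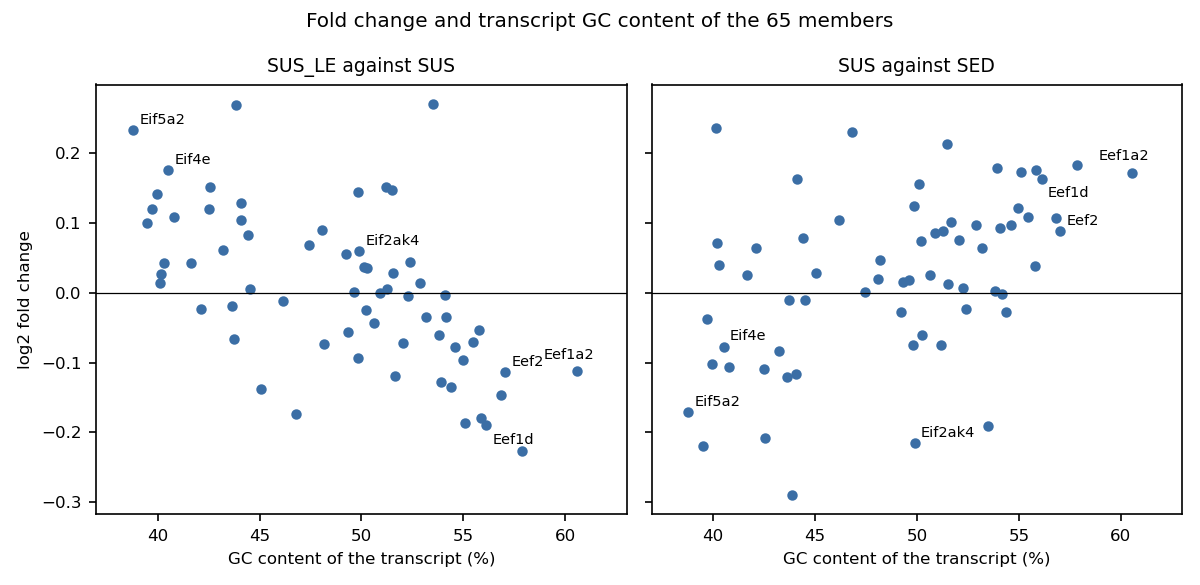
Log2 fold change of the 65 factors against the GC content of their transcripts (percent), in SUS_LE against SUS and in SUS against SED. The points run downward in the first panel (Spearman correlation -0.625) and upward in the second (Spearman correlation 0.494), with Eif5a2 at the GC-poor end and Eef1a2 at the GC-rich end.

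Genes that act around these factors were looked up in 6 further lists, and none of their tested members passed an adjusted p of 0.05 by edgeR. The counts below are at an unadjusted p under 0.05 by edgeR unless means are named, and of all tested genes 13.7% reached it in SUS_LE against SUS, 6.64% in SUS_LE against SED and 13.1% in SUS against SED. Of 18 mTORC1 genes, 1 had higher and 3 had lower values in SUS_LE than in SUS (22.2% in all), 1 had lower values in SUS_LE than in SED (5.56%), and 2 had higher values in SUS than in SED (11.1%). Without the 3 libraries low in choroid plexus the share in SUS_LE against SUS was 5.56%. Larp1, which binds oligopyrimidine mRNAs, averaged 172 ± 1.99 CPM in SUS_LE, 194 ± 9.97 CPM in SUS and 181 ± 3.58 CPM in SED (edgeR adjusted p = 0.145 in SUS_LE against SUS and 0.38 in SUS against SED). Its log2 fold change in SUS against SED was 0.11, and 0.062 without SUS 1. Akt1s1, an inhibitory subunit of mTORC1, averaged 27.7 ± 1.74 CPM in SUS and 22.8 ± 1.28 CPM in SED, a log2 fold change of 0.28 ± 0.0813 (SE) at an edgeR adjusted p of 0.172. Of 16 tested genes of the integrated stress response, which eIF2 kinases switch on, 1 had higher and 1 lower values in SUS_LE than in SUS (12.5% in all), none differed in SUS_LE against SED and 1 had higher values in SUS than in SED (6.25%), all at an unadjusted p under 0.05. By means, 9 were higher and 7 lower in SUS_LE than in SUS, and 6 higher and 10 lower in SUS than in SED. Gcn1, the activator of GCN2, averaged 79.3 ± 2.37 CPM in SUS_LE, 89.9 ± 6.08 CPM in SUS and 80.3 ± 1.47 CPM in SED (edgeR adjusted p = 0.181 in SUS_LE against SUS and 0.242 in SUS against SED). Its log2 fold changes were -0.18 and 0.16, and -0.089 and 0.11 without the 3 libraries low in choroid plexus.

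Of 18 genes of poly(A) binding, termination and recycling, 2 had higher and 1 had lower values in SUS_LE than in SUS at an unadjusted p under 0.05, and 1 had higher and 2 had lower values in SUS than in SED. Either count is 16.7% of the list, near the 13.7% and 13.1% of all tested genes. Pabpc1, the main cytoplasmic poly(A)-binding protein and a partner of eIF4G, averaged 201 ± 5.87 CPM in SUS_LE, 177 ± 15.3 CPM in SUS and 203 ± 4.15 CPM in SED (edgeR adjusted p = 0.174 in SUS_LE against SUS and 0.169 in SUS against SED). Its log2 fold changes were 0.18 and -0.20, and 0.11 and -0.13 without SUS 1. Abcf1, which binds eIF2, averaged 68.8 ± 3.4 CPM in SUS_LE, 78.1 ± 5.28 CPM in SUS and 67.5 ± 2.13 CPM in SED (edgeR adjusted p = 0.203 and 0.183). Of 12 repressors of translation in neurons, 9 had higher means in SUS_LE than in SUS and 11 had lower means in SUS than in SED, against 50.3% of all tested genes higher in SUS_LE than in SUS. At an unadjusted p under 0.05, 3 were higher in SUS_LE than in SUS (25%), and 2 were lower and 1 was higher in SUS than in SED (25%). Without the 3 libraries low in choroid plexus these counts were 1, 0 and 0. Cpeb4, which binds polyadenylation elements, averaged 200 ± 0.335 CPM in SUS_LE, 180 ± 4.22 CPM in SUS and 196 ± 6.05 CPM in SED (edgeR adjusted p = 0.173 in SUS_LE against SUS and 0.272 in SUS against SED). Its log2 fold changes were 0.15 and -0.12, and became 0.050 and 0.010 once GC and length trends were removed. Cyfip2, a partner of FMRP, averaged 1100 ± 38.3 CPM in SUS_LE and 984 ± 72.9 CPM in SUS (edgeR adjusted p = 0.245).

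Of 9 mitochondrial factors, Tufm was the 1 with an unadjusted p under 0.05 in SUS_LE against SUS and in SUS against SED, which is 11.1% of the list and close to the share of all tested genes. Tufm, the mitochondrial counterpart of eEF1A, averaged 28.6 ± 1.92 CPM in SUS_LE, 34.3 ± 1.84 CPM in SUS and 30.3 ± 1.75 CPM in SED (edgeR adjusted p = 0.152 in SUS_LE against SUS and 0.326 in SUS against SED). Of 22 genes of aminoacyl-tRNA synthetases and their scaffold, 14 had higher means in SUS_LE than in SUS, 16 in SUS_LE than in SED and 18 in SUS than in SED (medians 0.0098, 0.046 and 0.054), with 2, 1 and 2 under an unadjusted p of 0.05 by edgeR (9.09, 4.55 and 9.09%), below the 13.7, 6.64 and 13.1% of all tested genes. Without SUS 1, 14 of the 22 were higher in SUS than in SED. Aimp2, like Eef1e1 a scaffold of the synthetase complex, averaged 13.9 ± 0.219 CPM in SUS_LE and 11.6 ± 0.865 CPM in SED, a log2 fold change of 0.26 ± 0.106 (SE) at an edgeR adjusted p of 0.677.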

How the data were processed

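RNA from 9 libraries was measured, 3 mice in each of the groups SUS_LE, SUS and SED. The deposited tables give raw counts for each gene symbol. Tools named in the submitters' processing notes are fastp, STAR and Salmon, with GRCm39 as the build; their versions, the gene annotation, strand, molecular identifiers and any rounding of estimated counts are not given in the sources used here. The kit was CORALL RNA-seq V2, per the labels' protocols. In the file headers the exercised libraries run from 2 to 4, and their labels, followed here, run from 1 to 3. Overlapping and antisense genes may share counts if strand was not used.

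Models were fitted in R 4.3.3 with edgeR 4.0.16, and limma 3.58.1 and DESeq2 1.42.0 served as alternatives. The edgeR expression filter kept 16106 genes with 99.88% of counts. Libraries were scaled by TMM factors, and a robust quasi-likelihood model with group as the only term was fitted to all 9 libraries (common biological coefficient of variation 0.0845). Adjustment of p values was by Benjamini-Hochberg over all tested genes, with a threshold of 0.05. CPM per library is after TMM scaling, while the member rule used unscaled CPM. The standard error of a fold change is its size divided by the square root of F. Intervals are at 95% for the difference between group means. They take the spread between mice into account and are not a range of single mice. The procedure was run on simulated data whose planted changes were larger than any fold change of the members. That run therefore does not show how well changes of the members' size are found. Counts of libraries in 1 group differed by 2.7 to 14.6 in chi-square per degree of freedom, so none repeats another. All libraries carry 1 batch number.

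GC content, length and coding sequence came from GENCODE M21 by symbol, for all 65 members and 91.5% of tested genes, and start windows from RefSeq. GC content and length are those of the longest transcript of a symbol, a protein-coding one where annotated, which need not be the form expressed. No coordinates were converted between builds. Alternatives were DESeq2, limma voom with quality weights, RLE factors, no filter on low counts, only the 2 groups compared, the replicate number as a block, a member minimum of 5 CPM, leaving out each library, leaving out SUS 1, SUS_LE 1 and SUS_LE 3, a choroid plexus score as a term, and removal of per-library trends on GC content and length. Members, gene lists and alternatives were chosen with earlier results of these data known. Members are named where their unadjusted p was under 0.05 in a comparison, where they were the most abundant of their role, or where they belong to 18 factors always given; the other members named were added after their values were seen.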

Additional observations from a re-analysis of the deposited data

How the results depend on the processing

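No member was called in SUS_LE against SED, in SUS against SED or in the test among the 3 groups under any alternative run. Eif5a2 alone was called in SUS_LE against SUS, under 2 of them. It was 1 of 65 members with no filter on low counts, where 430 of 26992 genes were called. With the choroid plexus score as a term it was 1 of 65 members, where 431 of 16106 genes were called. Counts of members at an unadjusted p under 0.05 were less stable. The share of all tested genes under that p moved with the setting too, and is given beside that of members. In SUS_LE against SUS, where 6 was reported, the count was 3 with only the 2 groups in the fit (4.62%, against 11.3%). It was 3 without SUS 1, SUS_LE 1 and SUS_LE 3 (4.62%, against 9.16%). With the choroid plexus score it was 15 (23.1%, against 17.5%), and with GC and length trends removed 0 (0%, against 8.48%). In SUS_LE against SED (4) it was 2 with those trends removed (3.08%, against 7.07%). In SUS against SED (5) it was 9 with no filter (13.8%, against 10.2%). It was 1 without the 3 libraries (1.54%, against 9.42%) and 3 with the score (4.62%, against 9.91%). Among the 3 groups (7) it was 4 by DESeq2 (10.4% of all tested genes) and 2 without the 3 libraries (9.45%). It was 11 with the score (15.4% of all tested genes) and 3 with the trends removed (9.01%). The cause of these shifts was not tested. Leaving out single libraries gave 2 to 12 in SUS_LE against SUS. The count was 3 without SUS_LE 2 (4.62%, below the share of all tested genes). There were 2 without SUS 1 (3.08%, against 12%), 12 without SUS 2 (18.5%, against 15.8%) and 10 without SUS 3 (15.4%, against 13.3%). In SUS_LE against SED the range was 3 to 7, with 7 without SUS_LE 2 (10.8%, against 6.28%). In SUS against SED the range was 1 to 13. There were 3 without SUS 1 (4.62%, against 9.1%), 13 without SUS 2 (20%, against 14.5%) and 9 without SUS 3 (13.8%, against 16.3%). The count was 3 without SED 1 (4.62%, against 9.05%) and 1 without SED 3 (1.54%, against 8.92%). Among the groups the range was 3 to 11. There were 3 without SUS 1 (12% of all tested genes), 11 without SUS 2 (15%) and 4 without SED 1 (10.4%). The median log2 fold change of members in SUS_LE against SUS was 0.025 without the 3 libraries and ranged between -0.013 and 0.012 when single libraries were left out; in SUS_LE against SED it was 0.0082 with the score; in SUS against SED it was 0.043 with trends removed and 0.016 to 0.054 over single libraries. The log2 ratio of Eef1a2 to Eef1a1 in SUS_LE against SUS was -0.101 without the 3 libraries, which leaves 1 SUS_LE library, and -0.233 to -0.11 over single libraries. Deviations from the group means of libraries with the same number had correlations of -0.0867 to 0.18 in SUS_LE against SUS. These were -0.0261 to 0.0357 in SUS_LE against SED and -0.123 to 0.057 in SUS against SED. Pairs of unlike number had -0.28 to 0.167, -0.0375 to 0.0403 and -0.0493 to 0.146 in the same order. In SUS_LE against SUS the highest values were those of the libraries numbered 1 (0.178) and 2 (0.18). With the replicate number as a block, 0 members were called and 6, 3 and 6 had an unadjusted p under 0.05. These are 9.23, 4.62 and 9.23% of members, against 13.1, 6 and 12.6% of all tested genes. Low counts limit Eif3j2, Eif4ebp1, Eif4ebp3 and Eef2kmt, whose intervals reach beyond 0.5 log2 units in SUS against SED.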
